A study of Mus musculus with 6 samples.

Results

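The 44 genes described here encode the transport machinery of the primary cilium, the BBSome and the proteins of its base that are mutated in nephronophthisis. They were chosen by gene symbol, and all 44 were found among the 19658 genes that had values in the deposited table. The primary cilium is a single antenna that most kidney epithelial cells carry on the side facing the tubule lumen. Trains of intraflagellar transport (IFT) proteins build it: IFT-B complexes, pulled by kinesin-2, travel to the tip, and IFT-A complexes, pulled by dynein-2, travel back. The BBSome is a coat that carries membrane proteins out of the cilium, and the transition zone at its base is the gate that the NPHP and MKS proteins form. Inherited loss of many of these genes causes cystic kidney disease in people and mice.

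The samples were whole kidneys of mice at postnatal day 3, sequenced as mRNA libraries. One group was wild type (n = 3), and the other (n = 3) had the genotype R26NICD2/+Kspcre, shortened to NICD2 below. That genotype carries the intracellular domain of Notch2, the fragment an activated receptor sends to the nucleus, in the Rosa26 locus, with Kspcre, a Cre recombinase driven by the promoter of Ksp-cadherin, a gene of kidney tubule epithelium. By its title, the series asks about cyst growth driven by Notch2 activity. Nothing in the labels ties each sample to an animal of its own. The p-values therefore reflect variation among these samples only, and it may be technical.

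Estimated depth was 16150000 to 16950000 fragments per library. The row named for human Notch2, taken here as the transgene, held 0 to 0.03 FPKM in wild type and 60.2 to 79.6 FPKM in NICD2. FPKM is the number of fragments scaled by transcript length and by library depth. Markers of tubule epithelium were high in every library, the 6 genes listed averaging 77.2 to 255 FPKM over the libraries. Libraries stood apart in ways the genotype does not give. The sum of 4 Y-linked genes was 0 FPKM in NICD2 replicate 3 and 62.4 to 77.1 FPKM elsewhere. The sum of 8 adrenal cortex genes was 5.46 FPKM in wild type replicate 3 and 2.45 FPKM in NICD2 replicate 1, against 149 to 154 FPKM in the other 4 libraries. In whole kidneys, fewer cells of a type and less RNA per cell cannot be told apart.

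None of the 44 cilium genes was called higher or lower in NICD2 by limma at an adjusted p under 0.05, where 8.79% of all 13765 tested genes were called, 4.93% higher and 3.86% lower. All 44 passed the filter on low values, which asked for 1 FPKM in at least 3 libraries. At an unadjusted p under 0.05 there were 4 members, Nek8, Bbs4, Ift57 and Ift46, where 25.1% of all genes reached that level. The median log2 fold change of the members was -0.005 (19 above 0 and 25 below), beside -0.006 over all genes tested. Fold changes are differences of log2(FPKM + 1), NICD2 minus wild type, given ± SE, a scale that understates the change of low genes. The authors' deposited table gave 18 of the 44 a q under 0.05, in both directions, where 48.9% of its genes reached that level. In the authors' deposited table the log2 fold changes of those 18 lay between -0.33 and 0.33.

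The intervals show how large a change of the whole-kidney level the data can exclude. A change within the cells that express Cre was not measured apart and could be larger. A 95% confidence interval was taken from the same limma fit for each gene on its own, with no adjustment for the number of genes. For all 44 members it lay between -0.48 and 0.48, so no member's interval reached 0.5 in either direction. With a library left out the count was 39 to 43. Over all genes tested 80.3% had an interval within 0.5 of 0. For 15 of the 44 the interval lay within 0.25 of 0, where 26.5% of all genes had one. The median reach of a member's interval to either side was 0.19, or about 14.3%. Expressed as change of the FPKM itself, from a fit with a pseudocount of 0.1, the intervals lay between -30.8% and 62.8%. They stayed within 35% in both directions for 42 members, and the exceptions were Nphp4 and B9d1.

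**Figure D1:**
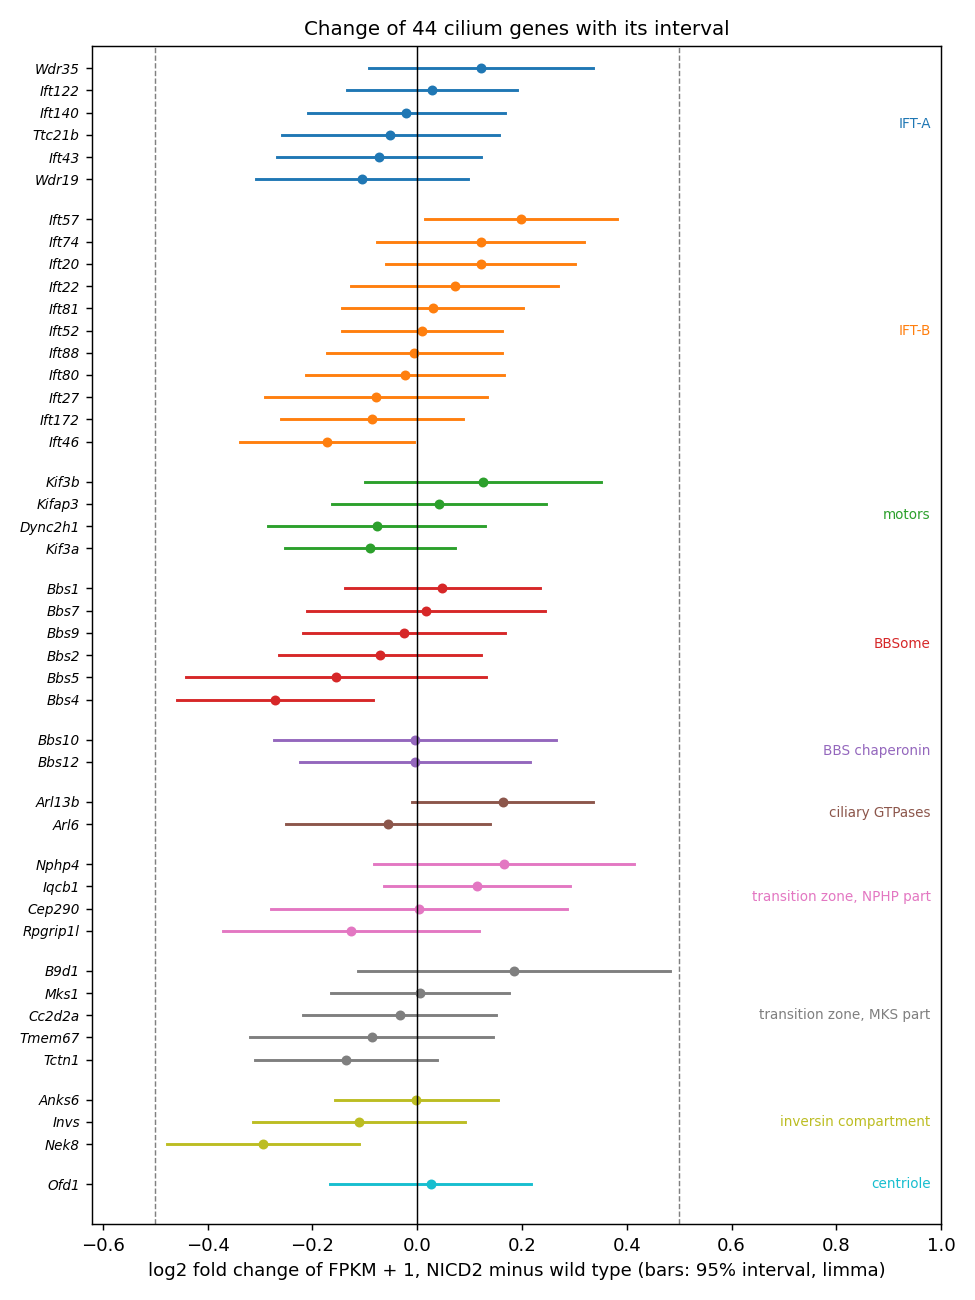
Log2 fold change of FPKM + 1 (x axis, NICD2 minus wild type) for each of the 44 genes, grouped by complex, with bars for the 95% interval from limma and dashed lines at -0.5 and 0.5. No bar reaches a dashed line, and the bars of Nek8, Bbs4, Ift46 and Ift57 do not cross 0.

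Levels differed far more between genes than between genotypes. Mean FPKM ran from 1.27 for Nphp4 to 45.3 for Ift20, a 35.7-fold range, and 32 members had a mean of at least 5 FPKM. The median coefficient of variation between the 3 libraries of a group was 7.54% in wild type and 6.65% in NICD2. By the depth estimate and the longest transcript, the library with the fewest fragments for a gene held 62 for Bbs10 and 1727 for Tctn1, with a median over members of 438.5. The corresponding counting error was 12.7% for Bbs10 and 2.41% for Tctn1. It covers counting only.

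**Figure D2:**
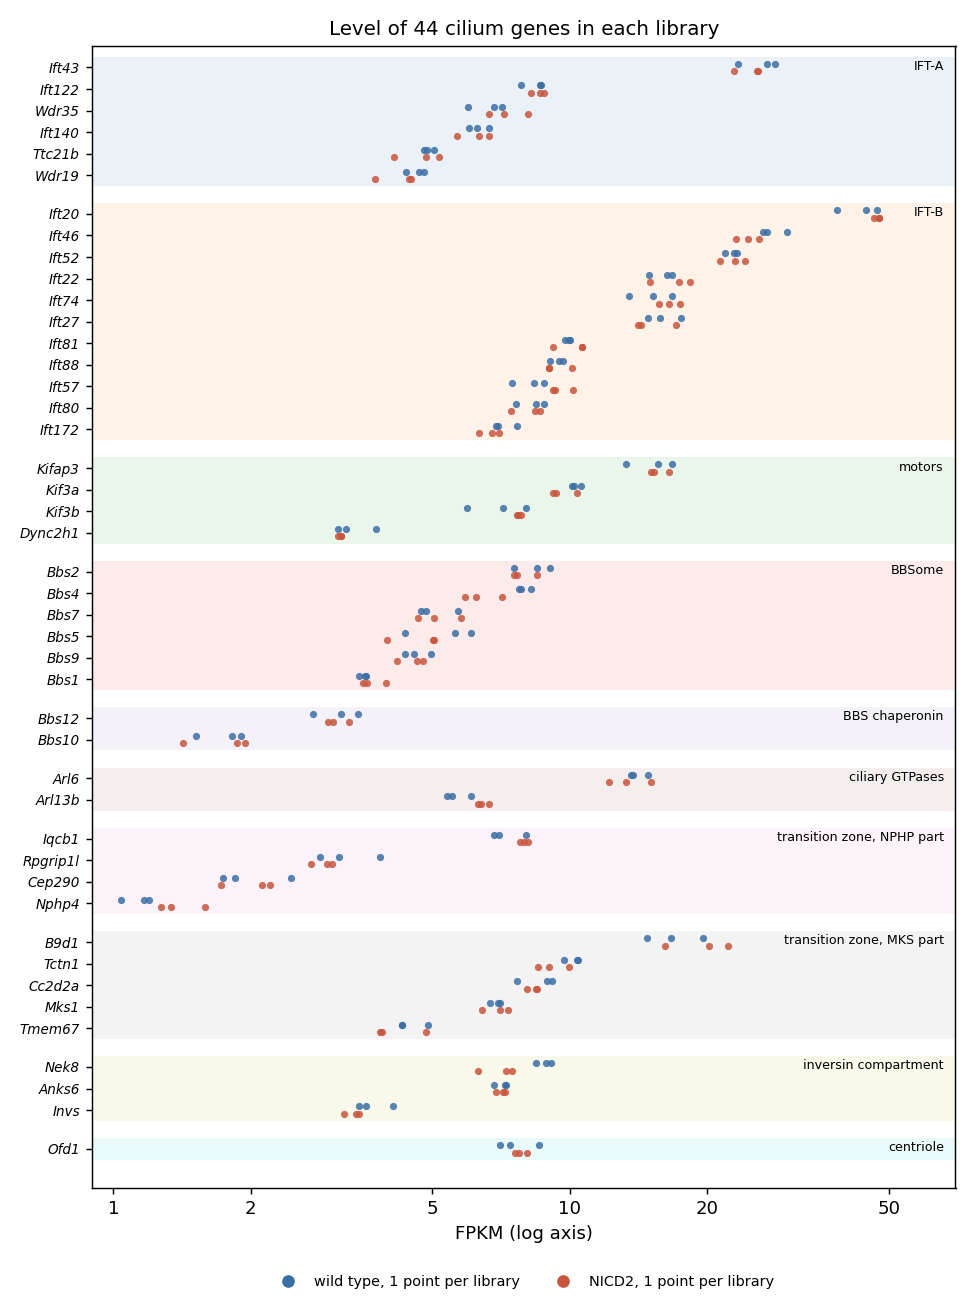
FPKM of each gene in each of the 6 libraries (log axis), wild type above and NICD2 below on each row, 1 point per library, grouped by complex. The points of both groups interleave for most genes, and the rows run from 1.27 FPKM (Nphp4) to 45.3 FPKM (Ift20) as means.

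IFT-A, the complex of return transport, had 6 members, and none was called. Wdr35, a subunit that also helps membrane proteins enter the cilium, had the smallest p and the widest interval. It was at 5.99, 7.12 and 6.81 FPKM in wild type and at 7.18, 6.65 and 8.12 FPKM in NICD2. The groups overlapped, with NICD2 replicate 2 below wild type replicates 2 and 3 (log2 fold change 0.12 ± 0.09, 95% interval -0.09 to 0.34, limma adjusted p = 0.472). Ift122, a core subunit, had the narrowest interval, at 7.81, 8.64 and 8.6 FPKM and at 8.6, 8.21 and 8.77 FPKM (log2 fold change 0.03 ± 0.07, 95% interval -0.13 to 0.19, limma adjusted p = 0.853). Its groups overlapped almost fully. Of the other core subunits, Ift140 had mean FPKM of 6.32 in wild type and 6.22 in NICD2, and Wdr19 had 4.61 and 4.23. Ttc21b, a peripheral subunit mutated in nephronophthisis, was at 4.9 and 4.71 FPKM. Ift43, the smallest subunit, was the most abundant by FPKM, at 26.2 ± 2.5 and 24.8 ± 1.66. Over the 6 genes the intervals exclude changes of log2(FPKM + 1) below -0.31 and above 0.34. As change of the FPKM the bounds were -22.6% and 29.8%.

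IFT-B, the complex of outward transport, had 11 members with the highest levels of any complex, from 6.93 FPKM for Ift172 to 45.3 FPKM for Ift20 as means. Ift57, a subunit of its peripheral part, was at 8.36, 7.48 and 8.76 FPKM in wild type and at 10.2, 9.28 and 9.17 FPKM in NICD2. Every NICD2 library lay above every wild type library. The difference was not called (log2 fold change 0.20 ± 0.08, 95% interval 0.01 to 0.38, limma adjusted p = 0.167, and 0.151 to 0.421 with a library left out). Ift46, a core subunit, went the other way. It was at 30, 26.5 and 27 FPKM in wild type and at 23.2, 24.5 and 26 FPKM in NICD2. All NICD2 values were below all wild type values, and the difference was not called (log2 fold change -0.17 ± 0.07, 95% interval -0.34 to -0.01, limma adjusted p = 0.184).

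Ift88, the subunit whose loss shortens cilia and gives cystic kidneys in mice, was at 9.49, 9.04 and 9.66 FPKM in wild type and at 10.1, 9 and 8.99 FPKM in NICD2. The groups overlapped, and the interval ran from -0.17 to 0.16 around a log2 fold change of -0.01. Ift52, which binds Ift88 in the core, had the narrowest interval of all 44 genes. It was at 21.9, 23.3 and 22.9 FPKM and at 24.2, 23.1 and 21.4 FPKM, with NICD2 libraries reaching both above and below wild type (log2 fold change 0.01 ± 0.07, 95% interval -0.14 to 0.16, limma adjusted p = 0.956). Ift20, the subunit that also sits at the Golgi, was at 43.5 ± 4.44 and 47.2 ± 0.623 FPKM. In the tubulin-binding pair, Ift74 had means of 15.1 and 16.5 FPKM and Ift81 of 9.9 and 10.1 FPKM. Of its small GTPases, Ift22 averaged 16 and 16.9 FPKM. Ift27 had the widest interval, at 15.7, 14.8 and 17.6 FPKM and at 14.1, 17.1 and 14.3 FPKM (log2 fold change -0.08 ± 0.09, 95% interval -0.29 to 0.13, limma adjusted p = 0.652). NICD2 replicates 1 and 3 were its low values. Ift80 averaged 8.29 and 8.15 FPKM, and Ift172 7.17 and 6.69 FPKM. Across IFT-B, 6 fold changes were above 0 and 5 below, and the intervals exclude changes of log2(FPKM + 1) below -0.34 and above 0.38. As change of the FPKM the bounds were -21.5% and 33.7%.

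None of the 4 motor genes was called. Kif3a, the kinesin-2 subunit whose loss in kidney tubules produces cysts in mice, was at 10.6, 10.1 and 10.2 FPKM in wild type and at 9.31, 9.18 and 10.4 FPKM in NICD2. Its groups overlapped through NICD2 replicate 3 (log2 fold change -0.09 ± 0.07, 95% interval -0.25 to 0.07, limma adjusted p = 0.483). Its partner Kif3b was at 5.96, 8.02 and 7.15 FPKM and at 7.7, 7.66 and 7.81 FPKM, and here wild type replicate 1 was the low value (log2 fold change 0.13 ± 0.10, 95% interval -0.10 to 0.35, limma adjusted p = 0.482). The linker Kifap3 was at 15.2 and 15.6 FPKM. Dync2h1, the heavy chain of dynein-2, was at 3.37 ± 0.353 and 3.13 ± 0.029 FPKM (SD, n = 3 per group). Changes of log2(FPKM + 1) below -0.28 or above 0.35 are outside the intervals of all 4 motor genes. As change of the FPKM the bounds were -22.0% and 31.4%.

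In the BBSome, Bbs4 was the member with the smallest p. It was at 7.76, 7.83 and 8.21 FPKM in wild type and at 5.9, 6.23 and 7.11 FPKM in NICD2. All NICD2 libraries were below all wild type libraries, NICD2 replicate 3 coming closest. The difference was not called (log2 fold change -0.27 ± 0.08, 95% interval -0.46 to -0.09, limma adjusted p = 0.078, and 0.0546 to 0.232 with a library left out). In the authors' deposited table Bbs4 had a log2 fold change of -0.31 and q = 1.79e-05. Bbs4 lies on chromosome 9 from 59321966 to 59353508 (GRCm38).

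The other BBSome subunits among the 44 genes overlapped between groups. Ttc8 and Bbip1, which are also BBSome subunits, were in a further list. Bbip1 was at 11.42, 10.98 and 11.03 FPKM in wild type and at 11.49, 12.99 and 12.03 FPKM in NICD2, without overlap. The difference was not called (log2 fold change 0.12 ± 0.07, limma adjusted p = 0.339). Ttc8 overlapped between groups. Bbs1, which binds the GTPase Arl6, had the narrowest interval of the 6 BBSome members, at 3.46, 3.56 and 3.58 FPKM and at 3.95, 3.6 and 3.52 FPKM (log2 fold change 0.05 ± 0.08, 95% interval -0.14 to 0.23, limma adjusted p = 0.764). Bbs5, a subunit that binds phosphoinositides, had the widest, at 4.35, 5.6 and 6.07 FPKM in wild type and 3.98, 5.04 and 5.01 FPKM in NICD2 (log2 fold change -0.16 ± 0.13, 95% interval -0.44 to 0.13, limma adjusted p = 0.495). Replicate 1 was its lowest library in both groups. Bbs2 was at 8.35 and 7.9 FPKM, Bbs7 at 5.08 and 5.16 FPKM and Bbs9 at 4.63 and 4.53 FPKM. Over the 6 BBSome genes the intervals exclude changes of log2(FPKM + 1) below -0.46 and above 0.24. As change of the FPKM the bounds were -30.3% and 22.1%. Levels of the 6 BBSome members spanned 2.25-fold, the narrowest range of the 4 larger complexes by their listed members. The range was 5.77-fold in IFT-A, 6.54-fold in IFT-B and 14.4-fold in the transition zone. Ttc8 (mean 11.4 FPKM) and Bbip1 (mean 11.7 FPKM) were not among the 6, and both lay above the highest of them, Bbs2. Bbs10 and Bbs12, chaperonin-like proteins that assemble the BBSome, both had a log2 fold change of -0.004. Bbs10 was at 1.9, 1.52 and 1.82 FPKM and at 1.94, 1.42 and 1.87 FPKM (SE 0.12, 95% interval -0.27 to 0.26, limma adjusted p = 0.986). Bbs12 was at 3.43, 2.74 and 3.16 FPKM and at 3.29, 3.03 and 2.95 FPKM (SE 0.10, 95% interval -0.22 to 0.22, limma adjusted p = 0.984). Both genes overlapped between groups.

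Of the ciliary GTPases, Arl13b, a membrane-bound activator of Arl3 often used to stain cilia, was at 5.38, 5.51 and 6.09 FPKM in wild type and at 6.66, 6.39 and 6.3 FPKM in NICD2. Every NICD2 library was above every wild type library, and the difference was not called (log2 fold change 0.16 ± 0.08, 95% interval -0.01 to 0.34, limma adjusted p = 0.226). Arl6, which recruits the BBSome to membranes, was at 13.6, 13.7 and 14.8 FPKM and at 15.1, 12.2 and 13.3 FPKM, with overlap (log2 fold change -0.06 ± 0.09, 95% interval -0.25 to 0.14, limma adjusted p = 0.734).

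In the transition zone, none of the 9 members reached an unadjusted p under 0.05. Nphp4, a scaffold of the NPHP module, had the lowest level of all 44 genes. It was at 1.2, 1.17 and 1.04 FPKM in wild type and at 1.34, 1.59 and 1.27 FPKM in NICD2. The groups did not overlap, and the difference was not called (log2 fold change 0.17 ± 0.11, 95% interval -0.08 to 0.41, limma adjusted p = 0.389). As change of the FPKM its interval was -10.1% to 62.8%, the widest of the members in the upward direction. Its span overlaps Kcnab2 on the opposite strand by 3670 bases, and how the authors treated strand is not stated in the labels or headers. The same limit holds for all 9 members that overlap a gene on the opposite strand. The others are Arl13b, Cep290, Ift140, Ift74, Invs, Iqcb1, Tctn1 and Tmem67. Ift140 (mean 6.27 FPKM) overlaps Tmem204 (mean 18.3 FPKM) by 25852 bases.

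Iqcb1 and Cep290, partners at the ciliary base whose loss affects retina and kidney, had the narrowest and the widest interval of the NPHP part. Iqcb1 was at 6.99, 6.84 and 8.01 FPKM and at 7.95, 8.11 and 7.78 FPKM (log2 fold change 0.11 ± 0.08, 95% interval -0.06 to 0.29, limma adjusted p = 0.409). Cep290 was at 1.74, 1.85 and 2.45 FPKM and at 1.72, 2.2 and 2.12 FPKM (log2 fold change 0.004 ± 0.12, 95% interval -0.28 to 0.29, limma adjusted p = 0.989). In both genes wild type replicate 3 was the highest wild type value and lay within or above the NICD2 range. The scaffold Rpgrip1l was at 3.26 ± 0.514 and 2.89 ± 0.157 FPKM (SD, n = 3 per group). In the MKS part, B9d1 had the widest interval of all 44 genes, -0.11 to 0.48. It was at 19.6, 16.7 and 14.8 FPKM in wild type and at 20.2, 22.2 and 16.1 FPKM in NICD2, so the range within each group was wider than the difference between their means (log2 fold change 0.18 ± 0.13, limma adjusted p = 0.428). Tctn1, a tectonic protein of the gate, had the smallest p there, at 10.4, 9.73 and 10.4 FPKM and at 8.54, 9.97 and 9.01 FPKM (log2 fold change -0.14 ± 0.08, 95% interval -0.31 to 0.04, limma adjusted p = 0.308). Mks1, a B9 domain protein, had the narrowest interval there, at 7.03, 6.68 and 6.97 FPKM and at 7.05, 7.31 and 6.43 FPKM (log2 fold change 0.005 ± 0.07, 95% interval -0.16 to 0.18, limma adjusted p = 0.976). The 3 wild type values lay inside the NICD2 range. Cc2d2a was at 8.56 and 8.33 FPKM, and Tmem67, the membrane receptor meckelin, at 4.49 and 4.18 FPKM. Over the 9 transition zone genes the intervals exclude changes of log2(FPKM + 1) below -0.37 and above 0.48. As change of the FPKM the bounds were -28.0% and 62.8%.

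The inversin compartment, the stretch of cilium just beyond the transition zone, held the member closest to the threshold. Nek8, a kinase mutated in nephronophthisis and in the jck mouse with cystic kidneys, was at 9.08, 8.89 and 8.44 FPKM in wild type and at 6.3, 7.48 and 7.24 FPKM in NICD2. All 3 NICD2 libraries lay below all 3 wild type libraries. The difference was not called in the fit to the deposited FPKM (log2 fold change -0.29 ± 0.08, 95% interval -0.48 to -0.11, limma adjusted p = 0.0588). It was called with upper-quartile scaling (adjusted p = 0.0477) and with a term for adrenal gene level (adjusted p = 0.0423), and in none of the 6 fits without a library (adjusted p = 0.0787 to 0.179). The interval excludes no change and also excludes a fall beyond 30.8% of the FPKM. In the authors' deposited table Nek8 had a log2 fold change of -0.33 and q = 3.29e-07. The gene lies on chromosome 11 from 78166106 to 78176699 (GRCm38).

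The groups of the other inversin compartment genes overlapped. Anks6, which binds and activates Nek8, was at 7.23, 7.24 and 6.82 FPKM in wild type and at 6.89, 7.15 and 7.21 FPKM in NICD2 (log2 fold change -0.002 ± 0.07, 95% interval -0.16 to 0.15, limma adjusted p = 0.989). Invs, which encodes inversin and anchors the compartment, was at 3.46, 4.1 and 3.57 FPKM and at 3.41, 3.2 and 3.46 FPKM. Its NICD2 replicate 3 equalled wild type replicate 1 (log2 fold change -0.11 ± 0.09, 95% interval -0.31 to 0.09, limma adjusted p = 0.491). Whether Nek8 differed from its partners was not tested. Ofd1, a protein of the distal centriole and of centriolar satellites, was at 7.02, 7.38 and 8.57 FPKM and at 8.05, 7.75 and 7.57 FPKM, with NICD2 values lying inside the wild type range (log2 fold change 0.03 ± 0.08, 95% interval -0.17 to 0.22, limma adjusted p = 0.889).

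**Figure D3:**
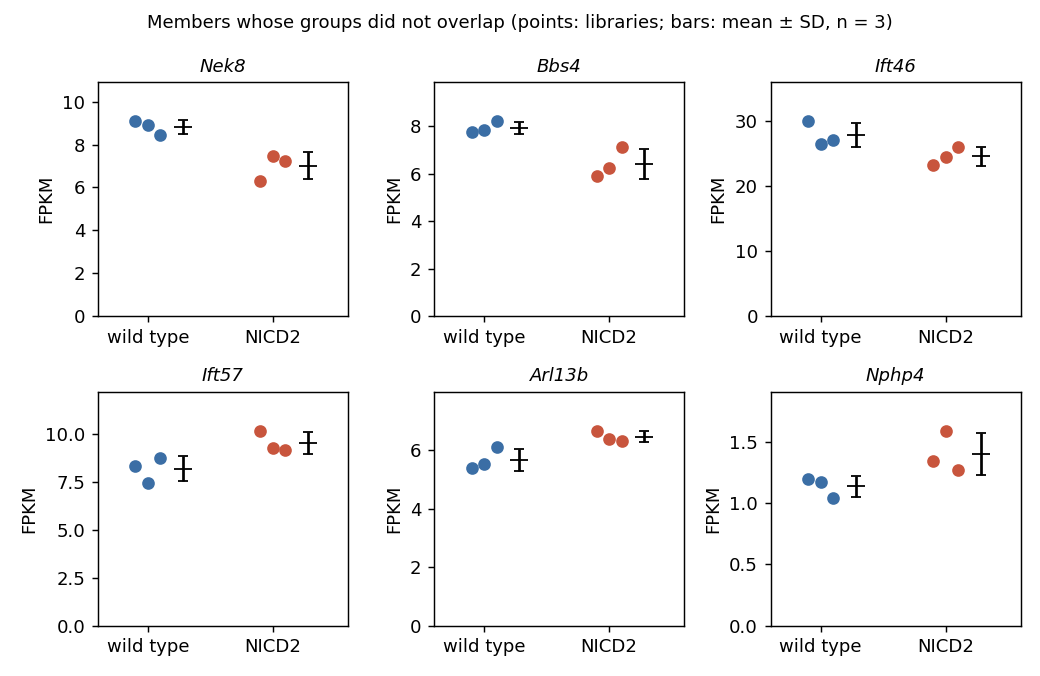
FPKM (y axis from 0) in the 3 wild type and 3 NICD2 libraries for the 6 genes whose groups did not overlap, with bars for the mean ± SD. Nek8, Bbs4 and Ift46 were lower and Ift57, Arl13b and Nphp4 higher in NICD2, and limma called none of them.

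Groups did not overlap for 6 of the 44 genes, 3 with NICD2 above and 3 below. Among all tested genes 30.5% did not overlap, 15.0% with NICD2 above and 15.5% with NICD2 below. The 6 came from 5 groups of proteins: Ift57 and Ift46 from IFT-B, Bbs4 from the BBSome, Arl13b from the GTPases, Nphp4 from the transition zone and Nek8 from the inversin compartment. No complex had more than 1 such gene in the same direction. The smallest change that limma called anywhere in the table was 0.23 in size, and 2 members, Nek8 and Bbs4, had a larger one.

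Averaged over subunits, the complexes lay close together across libraries. The mean log2(FPKM + 1) of IFT-B was 3.95, 3.91 and 3.97 in wild type and 4.0, 3.93 and 3.94 in NICD2. IFT-A was at 3.12, 3.14 and 3.16 and at 3.17, 3.04 and 3.16, and the transition zone at 2.66, 2.66 and 2.73 and at 2.7, 2.74 and 2.64. The BBSome was at 2.65, 2.71 and 2.79 and at 2.63, 2.6 and 2.69, the NICD2 mean being 0.08 lower with overlapping groups. Among the complexes of the 44 genes, the inversin compartment was the only one whose libraries did not overlap, at 2.84, 2.9 and 2.8 and at 2.66, 2.73 and 2.75, and Nek8 is 1 of its 3 genes. Over all 44 genes the mean was 3.11 ± 0.037 and 3.1 ± 0.021 (SD, n = 3 per group). These averages are descriptions with no test.

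**Figure D4:**
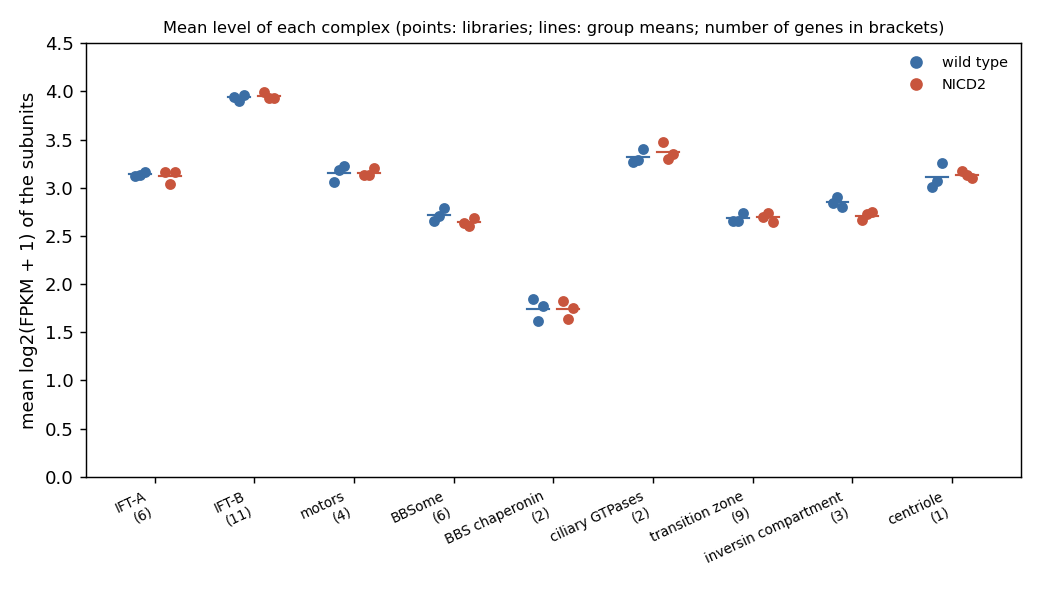
Mean log2(FPKM + 1) over the subunits of each complex (y axis from 0) in each library, with lines for group means and the number of genes in brackets. The groups overlap except in the inversin compartment, where NICD2 lies at 2.66 to 2.75 and wild type at 2.8 to 2.9.

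The median size of the log2 fold change was 0.07 over the members and 0.11 over all genes tested, and it was also 0.11 over the 11601 genes within the members' range of mean FPKM. The largest was 0.29 (Nek8). Among the 1210 genes that limma called the median size was 0.50.

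**Figure D5:**
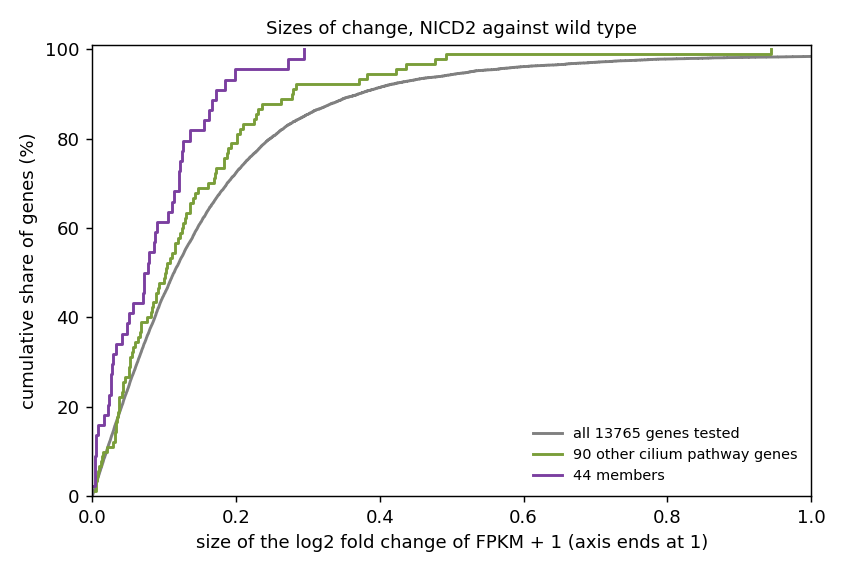
Cumulative share of genes (y axis, %) against the size of the log2 fold change of FPKM + 1 (x axis, shown up to 1) for the 44 members, 90 other cilium pathway genes and all 13765 genes tested. The curve of the members ends at 0.29, while the other pathway genes reach 0.94 (Dcdc2a).

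Other genes of the pathway came from 8 lists, and 90 of their 119 genes passed the filter. Limma called 3 of the 90 higher and 2 lower, next to 4.93% and 3.86% of all genes tested. The mean log2(FPKM + 1) of 5 lists did not overlap between groups. It was higher in NICD2 for the other IFT and BBS subunits (2.94 to 2.95 and 2.98 to 3.01) and for the other transition zone genes (3.05 in each wild type library and 3.09 in each NICD2 library). It was lower for the Hedgehog genes (2.61 to 2.68 and 2.45 to 2.52), the RFX and multiciliated regulators (1.39 to 1.40 and 1.22 to 1.35) and the motile cilium genes (0.66 to 0.69 and 0.59 to 0.64). Of the 24 tested genes in the other transition zone list, 11 had fold changes above 0 and 13 below, with a median of -0.017. The largest there was 0.94 (Dcdc2a). The list means take in genes below the filter and were not tested. None of the 15 tested remaining IFT and BBS subunits was called, and their intervals lay between -0.36 and 0.44. Of 24 further transition zone and nephronophthisis genes, 2 rose and 1 fell. Dcdc2a, a doublecortin protein of the cilium mutated in nephronophthisis, rose, at 28.4, 34.3 and 35.9 FPKM in wild type and at 72.9, 59.6 and 59.8 FPKM in NICD2 (log2 fold change 0.94 ± 0.11, limma adjusted p = 0.00122). Tmem107, a membrane protein of the gate, rose, at 5.64, 5.72 and 5.62 FPKM and at 8.41, 7.52 and 7.88 FPKM (log2 fold change 0.42 ± 0.07, limma adjusted p = 0.00862). Both kept their call whichever library was left out (largest adjusted p = 0.0385). In the 4 libraries with high adrenal gene levels alone, Tmem107 had an adjusted p of 0.0808. The zinc finger factor Zfp423 fell, at 4.57 ± 0.431 and 3.12 ± 0.508 FPKM (limma adjusted p = 0.0464). Its call was lost without any 1 of wild type replicates 1, 2 and 3 or NICD2 replicates 1 and 2, with adjusted p from 0.0623 to 0.147.

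Among 6 tested signalling genes of the ciliary membrane, Pkhd1, which encodes fibrocystin, the protein of recessive polycystic kidney disease, rose from 13.25 ± 0.742 to 19.05 ± 1.37 FPKM (limma adjusted p = 0.00545, and 0.0607 in those 4 libraries alone). Adcy6, an adenylyl cyclase, fell from 35.4 ± 1.36 to 25.1 ± 0.381 FPKM (limma adjusted p = 0.00171). None of the 13 genes of ciliary membrane traffic and none of the 13 of tubulin and axoneme modification was called. Hedgehog signalling runs through the cilium, and none of its 10 tested genes was called, with 2 fold changes above 0 and 8 below. Its target Gli1 was at 8.94 and 7.74 FPKM (adjusted p = 0.354) and its receptor Ptch1 at 10.5 and 9.7 FPKM (adjusted p = 0.503). The lowest log2 fold change of the Hedgehog list was -0.38. An unadjusted limma p under 0.05 was reached by 2 of the 10, both lower, next to 25.1% of all genes tested. In 3 of the 10 every NICD2 library lay below wild type, next to 15.5% of all genes tested. None of the 7 tested RFX and multiciliated regulators was called, and all 7 fold changes were below 0 (median -0.16). Groups did not overlap in 3 of the 7, with NICD2 below, next to 15.5% of all genes tested. Rfx3, a transcription factor of ciliary genes, was at 2.93, 3.27 and 3.57 FPKM in wild type and at 2.81, 2.58 and 2.67 FPKM in NICD2, without overlap (adjusted p = 0.214). Foxj1, the regulator of motile cilia, was at 2.14 and 1.63 FPKM (adjusted p = 0.241). Of 18 genes of motile cilia only 3 passed the filter, and Mcidas and Gmnc, which start the multiciliated programme, were below it.

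Promoters of the members were read for what they share. RFX factors bind the X-box, searched here on both strands as GT, any 2 bases, CC, any 3 bases, G, any 1 base and AAC, in windows of 250 bases before to 50 after each start site from RefSeq (GRCm38.p6). Windows existed for 39 of the 44 genes, and 8 of them (20.5%) held a match, against 2.96% of the 10038 other tested genes with a window. Matches lay in Ift22, Ift57, Bbs1, Bbs4, Bbs7, Nphp4, Mks1 and Tctn1. The sites of Ift57, Nphp4 and Bbs4 are shown because these genes had groups without overlap, and that of Mks1 because its level was among the closest between genotypes. Each is printed 5′ to 3′ along the gene's own strand, with the match in capitals, and that of Ift57 fits the motif when read on the opposite strand.
Ift57: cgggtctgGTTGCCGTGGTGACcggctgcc
Nphp4: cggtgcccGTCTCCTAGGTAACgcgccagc
Bbs4: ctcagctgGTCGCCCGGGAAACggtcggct
Mks1: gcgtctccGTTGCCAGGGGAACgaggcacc

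The Ift57 site lies at chr16:49699199-49699228 on the plus strand, upstream of the start. That of Nphp4 is at chr4:152477903-152477932 and that of Mks1 at chr11:87853183-87853212. The Bbs4 site is on the minus strand at chr9:59353464-59353493, and its match in capitals starts 23 bases after the start site. Each of these ranges covers all the printed bases, flanks included. Genes with the match had log2 fold changes from -0.27 (Bbs4) to 0.20 (Ift57), median 0.03, and the 31 without it ran from -0.29 to 0.18, median -0.03. RBPJ, the factor that brings Notch intracellular domains to DNA, is known to bind GTGGGAA. That motif was in the windows of 2 members, Ift74 and Nphp4 (5.13%), and in 7.34% of the other tested genes. A match is a description of letters in the window, and binding was not measured.

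Markers of several cell types differed between the same libraries in which none of the 44 listed genes was called. Of 8 markers of intercalated cells of the collecting duct 7 were called lower, and all 8 fold changes were below 0. The summed level of the 8 was 110 to 115 FPKM in wild type and 10.5 to 16.6 FPKM in NICD2. Principal cells are the ciliated cells of the collecting duct. Of their 6 markers 4 fell, the water channels Aqp2, Aqp3 and Aqp4 and the pump regulator Fxyd4, with log2 fold changes of -1.64, -0.86, -1.32 and -1.05, and 1 rose, the sodium channel subunit Scnn1g (0.79). Their summed level was 269 to 292 FPKM in wild type and 130 to 163 FPKM in NICD2. Of 6 tubule epithelium markers 3 rose, Krt8, Krt18 and Cdh1, with a summed level of 703 to 720 and 858 to 1018 FPKM. The other 3 were not called. Epcam had a log2 fold change of 0.22 with every NICD2 library above wild type. Pax8 had a log2 fold change of -0.16. Cdh16, which encodes Ksp-cadherin, had one of -0.21 with every NICD2 library below wild type. Podocyte markers were called lower for 5 of 6, proximal tubule markers for 2 of 6, endothelial markers for 2 of 6 and interstitial markers for 1 of 6. All 6 fold changes were below 0 in the podocyte, endothelial and interstitial lists, and 5 of 6 in the proximal tubule list. An unadjusted limma p under 0.05 was reached by 6 podocyte, 3 proximal tubule, 4 endothelial and 4 interstitial markers, all lower. Among all genes tested 25.1% reached that level. No marker of immune cells, red blood cells or adrenal gland was called. Dividing cells take their cilia down, and of 8 markers of dividing cells 1, Cdk1, was called higher. All 8 fold changes were above 0, and 6 markers had an unadjusted limma p under 0.05. Summed levels were 143 to 176 FPKM in wild type and 187 to 232 FPKM in NICD2, the lowest NICD2 value lying above the highest wild type value. The call of Cdk1 was lost on leaving out any of 4 libraries, namely replicates 2 and 3 of wild type and replicates 1 and 2 of NICD2 (limma adjusted p = 0.0785 to 0.103). The part of these shifts in the values of the cilium genes was not tested.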

How the data were processed

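Whole-kidney mRNA of 3 wild type and 3 NICD2 samples was analysed from 1 deposited table, which holds the authors' FPKM per gene and library, per the file headers. The same table gives the authors' deposited log2 fold changes, p-values and q-values from DEGseq, per the file headers, and these served only as description. Bowtie 0.12.2 and the build mm8 are named per the submitters' processing notes, while the coordinates in the table lie on the RefSeq GRCm38.p6 gene for all 44 members. The program that computed FPKM and its treatment of strand are not stated in the labels or headers. Of 23669 rows, 4010 held no FPKM, and 27 columns of sample pairs were not used.

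The 13765 genes that reached 1 FPKM in 3 or more libraries were fitted as log2(FPKM + 1) with limma 3.58.1 in R 4.3.3, using eBayes with trend, 2-sided tests, Benjamini-Hochberg adjustment over all genes tested and a threshold of 0.05. The procedure was tested on simulated data. With 3 samples against 3, an exact permutation test of a single gene cannot go below p = 0.1. Depth was taken from the step size of low FPKM, with 120 bases taken off the transcript length. At the estimated depth 77.4% to 80.2% of low values came out as whole fragments, within 0.15 of a fragment, where 30.0% would by chance. These shares are too low to recover counts, so no count test was run. Tables and plots were made with Python 3.11.15, pandas 2.3.3 and matplotlib 3.10.9.

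Alternatives were a pseudocount of 0.1, no filter, a filter of 2 FPKM, 2 other scalings, a replicate block and each library left out. The 2 alternatives on adrenal gene level were chosen after seeing the data. The members and lists were chosen with earlier results of these data known. All members could be named, and in each complex full values were given for the smallest p and for the narrowest and widest interval. Of the other lists, called genes were named. Gli1, Ptch1, Rfx3, Foxj1, Mcidas, Gmnc and the cell type markers given by name were chosen after their values were seen, as were the genes whose groups did not overlap.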

Additional observations from a re-analysis of the deposited data

How the results depend on the processing

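No member was called higher under any alternative. One member, Nek8, was called lower with upper-quartile scaling and with a term for adrenal gene level, and the count of members called lower was then 1. Over all genes, 348 were called higher and 207 lower in the 4 libraries with high adrenal gene levels, a fit with fewer samples, and 388 to 589 higher and 236 to 411 lower with a library left out, the fewest without wild type replicate 2. The interval stayed within 0.5 for 39 members with a pseudocount of 0.1, for 43 without the filter, for 42 of 42 tested at the 2 FPKM filter and for 39 to 43 with a library left out. With the replicate number as a block, 0 members were called higher and 0 lower, 616 genes were called higher and 439 lower, and 44 intervals lay within 0.5. Same-numbered samples did not deviate together (correlations -0.033, 0.059 and -0.045), and no sample correlated best with its own number.

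Small fold changes turned sign, and the cause was not tested. With upper-quartile scaling the log2 fold change was -0.0089 for Ift52, -0.0089 for Cep290 and -0.0107 for Mks1. With median-ratio scaling the log2 fold change was 0.0007 for Anks6. In the 4 adrenal-high libraries the log2 fold change was -0.0351 for Ift22, 0.0298 for Ift27, -0.0229 for Ift52, -0.0004 for Ift81, 0.0008 for Bbs2 and 0.02 for Bbs5. With a library left out it spanned -0.0145 to 0.052 for Ift122, -0.0662 to 0.0356 for Ift140, -0.11 to 0.0255 for Ttc21b, -0.0303 to 0.0549 for Ift52, -0.0755 to 0.0329 for Ift80, -0.0031 to 0.093 for Ift81, -0.0564 to 0.0203 for Ift88, -0.0469 to 0.11 for Kifap3 and -0.0551 to 0.0858 for Bbs7. It spanned -0.0614 to 0.0188 for Bbs9, -0.0652 to 0.0834 for Bbs10, -0.0707 to 0.0514 for Bbs12, -0.133 to 0.0101 for Arl6, -0.061 to 0.105 for Cep290, -0.0292 to 0.0516 for Mks1, -0.103 to 0.0101 for Cc2d2a, -0.027 to 0.0152 for Anks6 and -0.0272 to 0.1002 for Ofd1. Depth limits Bbs10 most, with 62 estimated fragments in its lowest library.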
